A study of Mus musculus with 6 samples.

Results

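The genes described here encode the proteins of the mitochondrial ribosome (mitoribosome). Members were the protein-coding genes of the count table whose symbol starts with Mrpl (large subunit) or Mrps (small subunit) followed by a number, without pseudogenes. There were 78 such genes, 49 of the large and 29 of the small subunit, among 55335 genes in the table, and 77 of them were among the 14107 genes tested. RNA-seq libraries were made from intestinal tissue, 1 from each of 3 Trmt6-/- mice (libraries KO72, KO73 and KO75) and of 3 wild-type (WT) mice (libraries WT185, WT186 and WT187). Every mouse of both groups had colitis induced with dextran sulfate sodium (DSS), a polysaccharide that injures the gut lining. Trmt6 encodes a subunit of the enzyme that adds 1-methyladenosine to tRNA. The strain, sex, age, DSS dose, intestinal segment and the extent of the Trmt6 deletion are not given in the sources used here.

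The mitoribosome translates the few mRNAs of the mitochondrial genome, which encode core subunits of the respiratory chain. Its rRNAs are made inside the organelle, whereas all of its proteins are encoded in the nucleus, translated in the cytosol and imported. Many of them descend from bacterial ribosomal proteins, and others are found only in mitochondria. Gut epithelium renews continuously, and its crypt progenitors and mature enterocytes differ in mitochondrial content.

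Libraries held 15213972 to 16972758 counts in genes. Trmt6 itself averaged 36.7 ± 2.89 CPM in libraries labelled Trmt6-/-, against 24.2 ± 6.18 CPM in WT (SD, n = 3 each). All 3 values of the libraries labelled Trmt6-/- (39.8, 34.2 and 36.2 CPM) lay above all 3 of WT (30.9, 18.7 and 23.1 CPM). The difference did not pass the edgeR test described below (adjusted p 0.335). Its transcript was therefore not lower in the libraries labelled as knockout. CPM is counts scaled to library size by TMM. Reads outside a deleted stretch check nothing, so each direction below belongs to the libraries as labelled. Absorptive enterocyte markers were abundant in every library, summing to 25769 to 39849 CPM in libraries labelled Trmt6-/-, against 15065 to 37316 CPM in WT. Of the 4 distal colon markers, none passed the low-count filter. Their sum was 1.98 CPM in WT185, all from Car1, and 0 in every other library.

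The window around each gene's start in RefSeq (GRCm38.p6), 250 bases before and 50 after it, was matched for 69 of the 78 members. The 5 motifs searched on both strands were the ZNF143 element, CCGGAAG (ETS family), the NRF1 palindrome, AAGATGGCG (YY1) and TGACGTCA (CREB and ATF family). Shares are of genes, and a gene counted if any window listed for it held the match. CCGGAAG was found for 26 of the 69 members (37.7%), against 19.7% of tested genes with a window and 9.93% of all 27025 genes with a window. It was found for 15 of 43 large-subunit and 11 of 26 small-subunit genes. AAGATGGCG stood in 8 members' windows (11.6%, against 3.48% of tested genes), the ZNF143 element in 5 (7.25%, against 4.53%), the NRF1 palindrome in 3 (4.35%, against 2.21%) and TGACGTCA in 2 (2.9%, against 3.46%). Such a match is a run of letters and no measured binding site.

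Below are stretches of these windows that lie outside annotated exons, 5′ to 3′ on the gene's strand, with motif matches in capitals. Mrpl34 is shown because it had the largest difference between genotypes, and it was 1 of 3 genes in the whole RefSeq table with at least 3 copies of the ZNF143 element. Its middle copy overlaps CCGGAAG. The Mrpl23 stretch lies in an intron of Mrpl23, and the Mrpl43 stretch lies in an intron of 1 annotated form of Twnk and just before the start of another. Mrps22 is shown as the small-subunit gene with the same element, and Mrpl43 for its pair of CCGGAAG matches. Mrpl23 is shown as the member with the most positive fold change, and Mrpl49 for the short gap it shares with Fau. The Mrpl23 and Mrpl49 stretches as printed held none of the 5 motifs, but the rest of the Mrpl49 window, not printed here, held TGACGTCA. The positions are chr8:71464676-71464925 (plus strand) for Mrpl34, chr9:98601680-98601929 (minus) for Mrps22, chr19:45006443-45006557 (minus) for Mrpl43, chr7:142532831-142533011 (plus) for Mrpl23 and chr19:6057786-6057843 (minus) for Mrpl49.
Mrpl34: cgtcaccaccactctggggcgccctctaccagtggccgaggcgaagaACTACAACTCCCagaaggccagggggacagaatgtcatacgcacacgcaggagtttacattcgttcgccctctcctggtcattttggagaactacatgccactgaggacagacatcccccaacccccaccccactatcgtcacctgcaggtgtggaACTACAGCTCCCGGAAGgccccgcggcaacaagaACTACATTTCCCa
Mrps22: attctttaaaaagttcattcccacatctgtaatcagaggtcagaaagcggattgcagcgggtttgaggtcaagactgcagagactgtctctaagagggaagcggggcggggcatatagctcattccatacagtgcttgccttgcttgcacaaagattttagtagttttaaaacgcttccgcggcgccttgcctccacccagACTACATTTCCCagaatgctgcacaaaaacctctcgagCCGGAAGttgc
Mrpl43: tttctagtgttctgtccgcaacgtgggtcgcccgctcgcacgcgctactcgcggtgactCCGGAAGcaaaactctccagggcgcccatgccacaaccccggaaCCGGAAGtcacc
Mrpl23: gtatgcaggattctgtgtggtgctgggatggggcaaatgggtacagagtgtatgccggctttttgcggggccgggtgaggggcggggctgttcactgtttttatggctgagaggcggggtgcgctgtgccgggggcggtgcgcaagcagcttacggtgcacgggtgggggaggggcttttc
Mrpl49: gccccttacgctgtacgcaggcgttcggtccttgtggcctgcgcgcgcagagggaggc

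Most mitoribosomal protein genes had slightly lower values in the libraries labelled Trmt6-/- than in WT, by amounts close to the spread between libraries. The log2 fold change was below 0 for 62 of 77 members (80.5%), against 53.9% of all genes tested. Its median was -0.18 over members (quartiles -0.33 and -0.03) and -0.03 over all genes (quartiles -0.29 and 0.23). Without WT185 the members' median was -0.04 with 43 of 77 below 0, and without KO73 it was -0.10 with 56 below 0. In bulk tissue, fewer cells of a type and less RNA per cell cannot be told apart.

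No member passed an adjusted p of 0.05 in edgeR's quasi-likelihood test with Benjamini-Hochberg adjustment over all genes, in which 6 genes passed (0.0425%). The lowest adjusted p among members was 0.145. At an unadjusted p under 0.05 stood 5 members (6.49%), against 12.1% of all genes, with 4 members lower (5.94% of all genes were lower at that level) and 1 higher (6.15% of all genes). DESeq2 placed 627 of 13818 genes past 0.05 (4.54%), among them 1 member, Mrpl34. The member values were tight: the median coefficient of variation was 13.4% in libraries labelled Trmt6-/- and 13.8% in WT, against 19.0% and 24.7% over all genes. Some of the genes tested had far fewer counts than any member, and genes of like level were not compared. For 75 of 77 members, the log2 fold change plus or minus 2 SE lay within 1 of 0, that is, within a 2-fold difference. The median SE was 0.186, and member counts ran between 79 and 2576 per library.

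**Figure D1:**
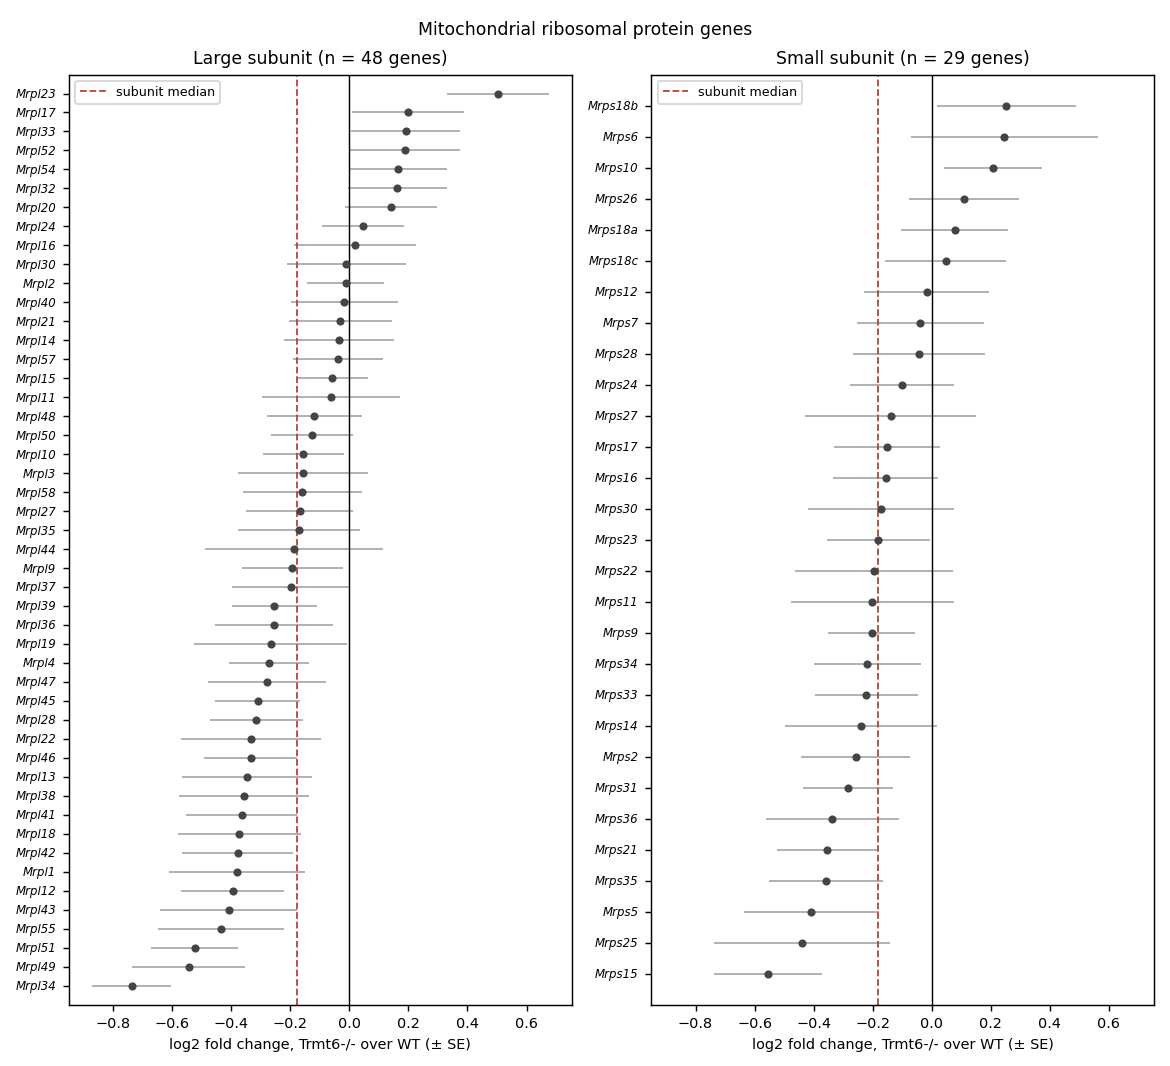
Log2 fold change, Trmt6-/- over WT, for each of 48 large-subunit and 29 small-subunit genes tested, with bars of 1 SE, the subunit median as a dashed line and 0 as a solid line. Points run between -0.74 for Mrpl34 and 0.50 for Mrpl23, and both medians lie at -0.18.

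The groups did not overlap for 12 members that were lower in the libraries labelled Trmt6-/- (15.6%, against 9.03% of all genes) and for 1 that was higher (1.3%, against 9.7%). The 12 were Mrpl34, Mrpl51, Mrpl49, Mrpl45, Mrpl46, Mrpl4, Mrpl41, Mrpl39, Mrpl1, Mrps15, Mrps21 and Mrps33, and the 1 was Mrpl23. Without WT185, chosen for this check after seeing the data, 15 members were lower without overlap (16.4% of all genes were) and 5 were higher (16.1% of all genes were).

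Mrpl34 (ENSMUSG00000034880.7, GRCm38 chr8:71464959-71465747) encodes the mitochondrial counterpart of bacterial ribosomal protein bL34. It had 28.7, 26.2 and 30.7 CPM in KO72, KO73 and KO75, against 49.0, 49.0 and 44.8 CPM in WT185, WT186 and WT187. All 3 values of the libraries labelled Trmt6-/- lay below all 3 of WT, and the gap between groups was wider than the range within either. The means were 28.6 ± 2.28 and 47.6 ± 2.41 CPM (SD, n = 3 each). The log2 fold change was -0.74 ± 0.13 (SE), with an edgeR unadjusted p of 0.000986 and an adjusted p of 0.145. Over the other edgeR and limma settings and with each library left out, its adjusted p ran between 0.0963 and 0.570, and DESeq2 gave 0.000267. The fold change lay between -0.68 and -0.81 in all of these.

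Mrpl51 (ENSMUSG00000030335.6, chr6:125191801-125196269), a mitochondria-specific large-subunit protein, had 37.5, 36.4 and 45.8 CPM in libraries labelled Trmt6-/-, against 56.6, 61.5 and 53.9 CPM in WT. Its log2 fold change was -0.52 ± 0.15, with an edgeR adjusted p of 0.251. Mrpl49 (ENSMUSG00000007338.10, chr19:6053622-6057785), also specific to mitochondria, had 28.0, 19.3 and 23.1 CPM in libraries labelled Trmt6-/-, against 39.1, 31.6 and 32.01 CPM in WT. For both genes the 2 groups stood apart, without passing the test. The Mrpl49 log2 fold change was -0.54 ± 0.19 with an edgeR adjusted p of 0.336. Its neighbour Fau, which encodes a cytosolic ribosomal protein fused to a ubiquitin-like domain and starts on the other side of the printed gap, averaged 368 ± 32.2 CPM in libraries labelled Trmt6-/-, against 307 ± 23.1 CPM in WT, the opposite order.

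The stalk of the large subunit, which recruits translation factors, is built around Mrpl12. Mrpl12 (ENSMUSG00000039640.7) had the highest level per length of all members, 66.7 CPM per kilobase over the 6 libraries. It had 81.9, 79.1 and 104 CPM in KO72, KO73 and KO75, against 134, 110.3 and 104 CPM in WT185, WT186 and WT187. KO75 and WT187 held nearly the same value, so the groups met. The Mrpl12 log2 fold change was -0.40 ± 0.17 (edgeR adjusted p 0.434), or -0.26 without WT185. Of the other stalk genes, Mrpl10 was at -0.16, Mrpl11 at -0.06 and Mrpl54 at 0.16 in log2 fold change. Mrpl53 was listed at 0 in all 6 libraries, where a count of 0 allows up to 3 counts, and 88.0% of its exon bases overlap other annotated genes.

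Proteins ringing the exit tunnel, where the new chain leaves the ribosome, did not share a direction, with 3 of 6 genes below 0. Mrpl23 (ENSMUSG00000037772.13, chr7:142532686-142540747), the counterpart of bacterial uL23 at the tunnel exit, had 29.9, 24.0 and 31.7 CPM in libraries labelled Trmt6-/-, against 21.0, 18.3 and 21.0 CPM in WT. It was the only member whose values in the libraries labelled Trmt6-/- all lay above those of WT. Its log2 fold change was 0.50 ± 0.17 (edgeR adjusted p 0.322), and it stayed between 0.43 and 0.61 under every alternative run. Mrpl45, which anchors the mitoribosome to the inner membrane, had 35.4, 35.1 and 38.1 CPM in libraries labelled Trmt6-/-, against 51.2, 42.6 and 41.1 CPM in WT. These groups also stood apart, in the other direction, at a log2 fold change of -0.31 ± 0.14 (edgeR adjusted p 0.462), or -0.19 without WT185. Mrpl17 averaged 32.9 ± 4.53 CPM in libraries labelled Trmt6-/-, against 28.7 ± 4.86 CPM in WT, with overlapping groups. In the central protuberance, the top of the large subunit, the 5 genes Mrpl38, Mrpl40, Mrpl46, Mrpl48 and Mrpl58 were all below 0, with a median of -0.16. Mrpl58 is a peptidyl-tRNA hydrolase that frees stalled chains.

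**Figure D2:**
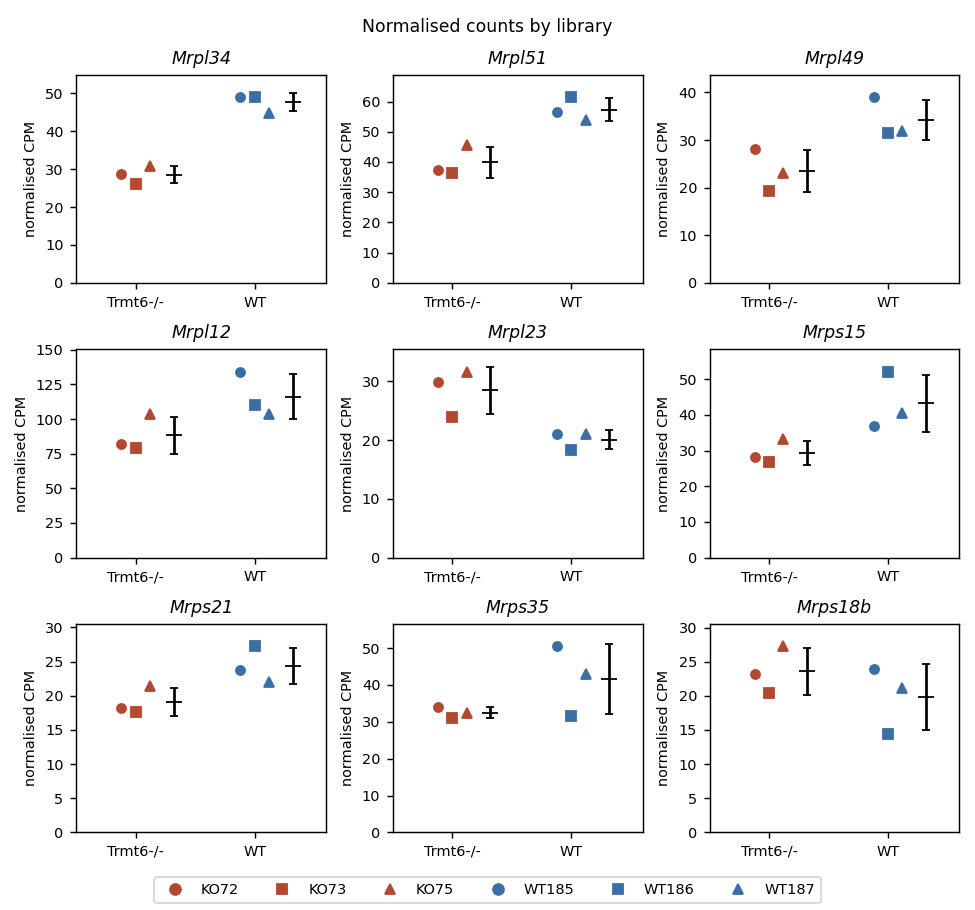
TMM-normalised CPM of 9 members in each library, Trmt6-/- libraries left (red) and WT right (blue), with the mean and SD of each group beside the points (n = 3 each). The groups stand apart for Mrpl34, Mrpl51, Mrpl49, Mrpl23, Mrps15 and Mrps21, and meet or overlap for Mrpl12, Mrps35 and Mrps18b.

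In the small subunit, which holds the decoding site, Mrps15 had the lowest fold change. Mrps15 (ENSMUSG00000028861.13, chr4:126046925-126055532), the counterpart of bacterial uS15, had 28.2, 26.8 and 33.2 CPM in libraries labelled Trmt6-/-, against 36.9, 52.1 and 40.6 CPM in WT. The groups did not overlap, and WT186 was the highest library. The log2 fold change was -0.56 ± 0.18 with an edgeR adjusted p of 0.300; with the regional index described below as a covariate it was -0.29. Mrps21, the counterpart of bacterial bS21, had 18.2, 17.6 and 21.4 CPM in libraries labelled Trmt6-/-, against 23.8, 27.2 and 22.0 CPM in WT, again without overlap (-0.35 ± 0.17, edgeR adjusted p 0.493). Mrps35 had 34.1, 31.1 and 32.4 CPM in libraries labelled Trmt6-/-, against 50.5, 31.6 and 43.0 CPM in WT, where WT186 fell among the libraries labelled Trmt6-/-.

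The remaining small-subunit genes picked out by the naming rule had overlapping groups. Mrps5 averaged 36.6 ± 7.07 CPM in libraries labelled Trmt6-/-, against 48.5 ± 11.8 CPM in WT, and Mrps31 averaged 42.9 ± 6.23 CPM in libraries labelled Trmt6-/-, against 52.2 ± 3.87 CPM in WT. Mrps36, which is also described as a component of the alpha-ketoglutarate dehydrogenase complex, averaged 23.5 ± 4.83 CPM in libraries labelled Trmt6-/-, against 29.7 ± 5.68 CPM in WT. Its fold change had the opposite sign with the regional index as a covariate. Mrps6 had 8.01, 9.99 and 11.0 CPM in libraries labelled Trmt6-/-, against 10.9, 5.39 and 8.09 CPM in WT. WT185 and WT187 lay among the libraries labelled Trmt6-/-. That gene had the fewest counts of the members tested. Mrps25, the second most negative of the small subunit, had 15.6, 10.3 and 13.5 CPM in libraries labelled Trmt6-/-, against 24.9, 15.1 and 13.4 CPM in WT, where WT185 stood alone (log2 fold change -0.44 ± 0.30, or -0.097 without WT185). Mrps12, at the decoding centre and not picked by the rule, averaged 18.3 ± 2.72 CPM in libraries labelled Trmt6-/-, against 18.5 ± 3.47 CPM in WT.

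Mrps18a, Mrps18b and Mrps18c are paralogs related to a single bacterial protein, bS18. Mrps18b had the most positive fold change of the small-subunit genes, 0.25 ± 0.23, from 23.3, 20.4 and 27.3 CPM in libraries labelled Trmt6-/-, against 23.9, 14.4 and 21.2 CPM in WT. Without WT186 it was 0.077, and without WT185 it was 0.43, below Mrps6 at 0.54. Mrps18a averaged 20.1 ± 1.23 CPM in libraries labelled Trmt6-/-, against 19.0 ± 3.10 CPM in WT, and Mrps18c averaged 13.2 ± 1.96 CPM in libraries labelled Trmt6-/-, against 12.7 ± 1.003 CPM in WT. All 3 groups of values overlapped between genotypes, and the signs for Mrps18a and Mrps18c turned under library-total scaling. Structures place the Mrps18a and Mrps30 proteins in the large subunit despite their symbols. Mrps30 had 25.2, 19.0 and 22.1 CPM in libraries labelled Trmt6-/-, against 30.6, 17.3 and 26.9 CPM in WT, and its fold change of -0.17 became 0.03 without WT185.

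Large and small subunit did not separate. The median log2 fold change was -0.18 for both, with 39 of 48 large-subunit and 23 of 29 small-subunit genes below 0. With Mrps18a and Mrps30 counted by place, the medians were -0.17 for 50 large-subunit and -0.20 for 27 small-subunit genes. Without WT185, they were -0.05 for the large and 0.03 for the small subunit. Summed over genes, the large subunit reached 1471, 1298 and 1586 CPM in KO72, KO73 and KO75, against 1835, 1570.4 and 1541 CPM in WT185, WT186 and WT187. The small subunit reached 708, 631 and 737 CPM in libraries labelled Trmt6-/-, against 892, 706 and 755 CPM in WT. WT185 was the highest and KO73 the lowest library in both sums. The ratio of the 2 sums was 2.10 ± 0.04995 in libraries labelled Trmt6-/- and 2.11 ± 0.101 in WT (SD, n = 3 each), a difference smaller than the spread within either group. Members with a bacterial homolog had a median of -0.16 (36 of 48 below 0), and those without a listed one had -0.22 (26 of 29 below 0).

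Levels per length differed far more between members than between genotypes. The mean over 6 libraries ran from 2.35 CPM per kilobase for Mrps25 to 66.7 for Mrpl12, with a median of 11.9. Mrpl34 came next to Mrpl12 at 62.7 CPM per kilobase, followed at a distance by Mrpl54 at 31.6, while Mrps21, Mrps23 and Mrps15 were the highest of the small subunit at 29.3, 22.2 and 21.4. The lowest were Mrps25, Mrpl33 at 2.68, Mrps10 at 3.19 and Mrpl13 at 3.32 CPM per kilobase. These values rest on the deposited gene length, the union of all annotated exons, which exceeds the length of 1 mature mRNA. Exon bases were shared with another gene in 32 of the 78 members, and by over 20% in 10. Reads in such bases were left out by the counting. Per kilobase of unshared exon Mrps25 was at 7.78 (69.8% shared) and Mrps34 at 48.4 rather than 10.8 (77.8% shared). The order changes on that scale: Mrps34 and Mrpl24 (37.3) come after Mrpl12 and Mrpl34 and ahead of Mrpl54, Mrps34 is the highest of the small subunit, and Mrps24 (24.0) exceeds Mrps23 and Mrps15. The genes lay on 17 chromosomes, with 11 on chromosome 11.

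**Figure D3:**
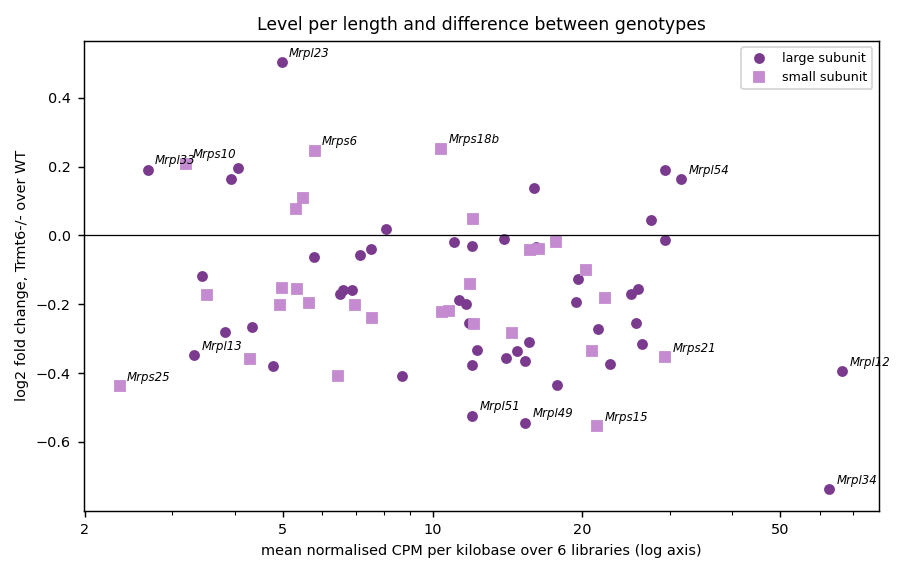
Log2 fold change, Trmt6-/- over WT (vertical axis), against the mean TMM-normalised CPM per kilobase of deposited gene length over 6 libraries (horizontal log axis) for 77 members, circles for the large and squares for the small subunit. Mrpl12 and Mrpl34 stand apart at 66.7 and 62.7 CPM per kilobase, and values below 0 occur at high and low levels.

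Some members share a start region with a neighbour, and the pairs differed in how they compared. Mrpl46 and Mrps11 lie head to head: Mrpl46 averaged 18.5 ± 1.34 CPM in libraries labelled Trmt6-/-, against 23.4 ± 1.91 CPM in WT, and Mrps11 averaged 9.99 ± 0.449 CPM in libraries labelled Trmt6-/-, against 11.5 ± 3.74 CPM in WT. Mrpl43 averaged 11.3 ± 1.85 CPM in libraries labelled Trmt6-/-, against 15.1 ± 2.81 CPM in WT. Twnk, the mitochondrial DNA helicase gene on the opposite strand, with a form that begins within Mrpl43, averaged 17.5 ± 6.58 CPM in libraries labelled Trmt6-/-, against 21.8 ± 8.36 CPM in WT. Both genes of each pair overlapped between groups except Mrpl46, and the counting did not use strand, so reads in overlapping ends cannot be attributed.

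Member values were most often highest in WT185 and lowest in KO73. WT185 held the highest value for 50 of 77 members (20.5% of all genes had theirs there), and KO73 held the lowest for 44 (11.8% of all genes). The median deviation of members from their 6-library mean was -0.03, -0.22 and 0.04 on the log2 scale in KO72, KO73 and KO75, against 0.25, -0.04 and 0.01 in WT185, WT186 and WT187. Leaving those 2 libraries aside, the medians of the other 4 lay within 0.04 of the mean. Crypt stem and cycling markers also peaked in WT185: all 7 were tested, 7 of 7 had fold changes below 0 with 0 passing the test, and they summed to 1212, 769 and 285 CPM in KO72, KO73 and KO75, against 2536, 776 and 1532 CPM in WT185, WT186 and WT187. The lowest sum of these markers was in KO75, which had the second-highest summed member level of the 6 libraries. T and NK cell markers summed to 104, 280.5 and 855 CPM in libraries labelled Trmt6-/-, against 303, 442 and 1123 CPM in WT, with 9 of 9 below 0 and 0 passing.

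Other cell type markers were also compared between the groups, with 0 passing the edgeR test. Enteroendocrine markers had 5 of 5 fold changes below 0 (median -1.03), 4 of them at an unadjusted p under 0.05. They summed to 145, 138 and 156 CPM in KO72, KO73 and KO75, against 293, 401 and 258 CPM in WT185, WT186 and WT187, so every library labelled Trmt6-/- was below every WT library. Goblet cell markers went the other way in fold change, with 6 of 6 above 0 (median 0.56), but their sums overlapped between the groups. These were 12114, 12979 and 16847 CPM in KO72, KO73 and KO75, against 8345, 9404 and 12813 CPM in WT185, WT186 and WT187. The absorptive enterocyte markers had 6 of 7 above 0. Their sum was lowest in WT185 and highest in KO73, the reverse of the members' sums. By median deviation WT185 was again their lowest library at -0.74, but WT186 was the highest at 0.48, above KO73 at 0.36. Paneth cell markers had 5 of 5 above 0, but their sums overlapped between the groups. They were 7374, 3758 and 4675 CPM in libraries labelled Trmt6-/-, against 8243, 970 and 3102 CPM in WT. The 4 macrophage markers tested were all below 0, at low sums that overlapped as well (2.44 to 10.7 CPM in libraries labelled Trmt6-/-, against 4.95 to 18.0 CPM in WT). Neutrophil markers went the other way at very low levels, and 0 of 4 passed the low-count filter. They summed to 0.395, 2.17 and 6.19 CPM in KO72, KO73 and KO75, against 0 CPM in every WT library. The part of these cell type markers in the members' values was not tested.

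The libraries also differed in ileal against proximal intestinal markers. A regional index was taken as the mean log2 CPM of the ileal genes (Slc51b, Slc10a2, Fgf15, Fabp6) less that of the proximal genes (Lct, Gata4, Fabp1, Cybrd1). It was 0.61, -1.004 and -3.67 in KO72, KO73 and KO75, against -1.69, -7.41 and -6.04 in WT185, WT186 and WT187. All 3 libraries of WT lay below KO72 and KO73, and WT185 lay above KO75. With the index as a covariate the members' median was -0.24 (all genes 0.00345), with 62 of 77 below 0 and 0 past the adjusted threshold in edgeR. The index ran largely with genotype, and its genes Slc51b, Gata4 and Lct stood at an edgeR unadjusted p under 0.05. Region and genotype therefore cannot be told apart by this fit.

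Cytosolic ribosomal protein genes and nuclear respiratory chain genes had their lowest library elsewhere than the members, whose lowest was KO73. The cytosolic set had a median log2 fold change of 0.35, with 75 of 78 above 0, and its lowest library was WT186, at a median deviation of -0.78. Like the members, it was high in WT185, at 0.30, close to its highest value of 0.32 in KO72. The nuclear respiratory chain set had a median of -0.29, with 74 of 79 below 0, and ran between -0.41 in KO72 and 0.41 in WT186. In KO72 the mitoribosomal median stood at -0.03, between the cytosolic ribosome at 0.32 and the respiratory chain at -0.41. No gene of either set passed the edgeR test. The 13 mRNAs and 2 rRNAs of the mitochondrial genome were listed at 0 in all 6 libraries, so the products and the rRNA partners of the mitoribosome gave no values.

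**Figure D4:**
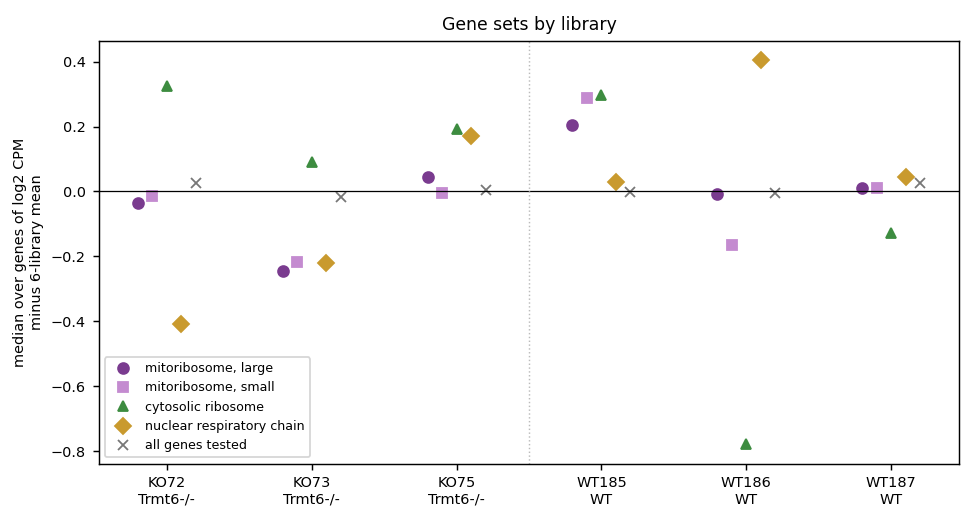
Median over genes of log2 CPM minus the 6-library mean, per library, for the large and small mitoribosomal subunits, cytosolic ribosomal proteins, nuclear respiratory chain genes and all genes tested, with Trmt6-/- libraries left of WT. The mitoribosomal points are highest in WT185 and lowest in KO73, whereas the cytosolic ribosome is lowest in WT186 at -0.78.

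Other mitoribosomal proteins carry symbols outside the Mrpl and Mrps series, and all 5 had fold changes below 0, with a median of -0.42 and 0 passing the test. Gadd45gip1 (CRIF1), a large-subunit protein at the exit tunnel, averaged 8.55 ± 1.69 CPM in libraries labelled Trmt6-/-, against 16.4 ± 4.88 CPM in WT, at a log2 fold change of -0.94 ± 0.29 (edgeR adjusted p 0.280). It lay below every member in fold change. Dap3, the GTP-binding small-subunit protein, averaged 55.4 ± 4.66 CPM in libraries labelled Trmt6-/-, against 61.0 ± 5.68 CPM in WT. Ptcd3, an RNA-binding small-subunit protein, averaged 45.0 ± 8.76 CPM in libraries labelled Trmt6-/-, against 60.1 ± 12.4 CPM in WT, within overlapping ranges.

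Factors that build or serve the mitoribosome had more fold changes below 0 than above, and 0 of them passed the edgeR test. Of 28 assembly factors 19 were below 0 (median -0.11). Of 15 translation factors 14 were below 0 (median -0.17). Tufm, the elongation factor that brings tRNA to the mitoribosome, averaged 121 ± 20.1 CPM in libraries labelled Trmt6-/-, against 166 ± 21.0 CPM in WT (edgeR adjusted p 0.392). Lrpprc, which stabilises mitochondrial mRNAs, averaged 117 ± 18.8 CPM in libraries labelled Trmt6-/-, against 150.2 ± 25.5 CPM in WT. Mtrf1l, a release factor, averaged 8.99 ± 0.670 CPM in libraries labelled Trmt6-/-, against 14.6 ± 1.45 CPM in WT (edgeR adjusted p 0.262). Among the 17 mitochondrial aminoacyl-tRNA synthetases, which charge tRNAs in the organelle, 12 were below 0 (median -0.18). Lars2 had 103.5, 895 and 206 CPM in KO72, KO73 and KO75, against 142, 120.3 and 96.5 CPM in WT185, WT186 and WT187, so that its mean rests on KO73. Iars2 averaged 126 ± 21.5 CPM in libraries labelled Trmt6-/-, against 79.6 ± 25.6 CPM in WT (edgeR adjusted p 0.382).

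Genes that regulate mitochondrial content and transcription were counted in the same way. The 6 mitochondrial transcription genes, among them Tfam and Polrmt, had a median of -0.03 with 3 below 0. The 9 biogenesis regulators had a median of -0.12 with 7 below 0. The 2 with the highest CPM, Esrra and Yy1, had log2 fold changes of -0.19 and -0.12, with overlapping groups (edgeR adjusted p 0.818 and 0.833). Only Ppargc1b, a coactivator of mitochondrial genes, stood at an edgeR unadjusted p under 0.05. It averaged 21.6 ± 2.45 CPM in libraries labelled Trmt6-/-, against 34.5 ± 3.03 CPM in WT (edgeR adjusted p 0.202). The 6 mitochondrial stress genes had a median of -0.01, and 1 of them passed the test. Atf5, a transcription factor of the mitochondrial stress response, rose to 83.5 ± 20.7 CPM in the libraries labelled Trmt6-/-, against 11.5 ± 2.87 CPM in WT, at a log2 fold change of 2.86 ± 0.27 (edgeR adjusted p 0.0424). Under library-total scaling, in limma-voom, with the regional index, or without KO73, KO75, WT186 or WT187, 0 genes passed.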

How the data were processed

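RNA was extracted and made into cDNA libraries amplified by PCR without molecular identifiers, per the labels' protocols. The authors deposited raw counts per gene, made with featureCounts 2.0.1 on GENCODE vM23 with paired reads and no strand, multi-mapping or overlap option, per the file headers. The deposited gene length (unit: other) divided CPM for levels per kilobase. The submitters' processing notes name fastp, HISAT2 and mm10. Whole-number totals were 15213972 to 16972758 per library. The limit given for a count of 0 covers counting error only; the SE of a log2 fold change comes from the edgeR fit and includes the spread between libraries. Column names give the genotype and a number per mouse, and no replicate number. GENCODE M21, on GRCm38 as well, gave symbols for 55154 of 55335 identifiers, and RefSeq gave the promoters.

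Genes passing filterByExpr were scaled by TMM and tested two-sided with edgeR 4.0.16 (glmQLFit and glmQLFTest, R 4.3.3), genotype as the only term, with Benjamini-Hochberg adjustment over 14107 genes at a threshold of 0.05. edgeR estimated a biological coefficient of variation of 0.345. The scripts were tested on simulated counts with less spread between libraries than this estimate and larger changes than the members showed. That test does not measure power in these data. Members and lists were chosen with earlier results of these data known, and are described by counts and medians without a set test. Alternatives were RLE, upper-quartile and library-total scaling, no filter, 1 CPM in 3 libraries, DESeq2 1.42.0, limma-voom (limma 3.58.1), the regional index and each library left out. In each subunit the rule named the 6 members with the smallest p, the highest and lowest levels and fold changes, the Mrps18 paralogs, Mrps30 and untested members, and 2 genes per list. Any further gene was picked with its values in view.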

Additional observations from a re-analysis of the deposited data

How the results depend on the processing

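No paired analysis was possible because the columns carry no replicate number, and no fit with a replicate block was run. Depth and 3 libraries per group limit the comparison more through the spread between libraries than through counting, with at least 79 counts per library for each member tested. The 6 genes past the threshold became 0 under library totals, the regional index and limma-voom, 159 without the filter and 627 in DESeq2, and ran between 0 and 6 with a library left out. The count of members past it stayed at 0 except in DESeq2, where it was 1. The median over members ran between -0.04 and -0.26 in all settings, and that of the small subunit between -0.22 and 0.027 (without WT185) with a library left out. The large-minus-small difference, 0.0022, moved by less than the spread between libraries (0.0914). Signs reversed for Mrps18a (-0.0067 under library totals, -0.071 with the index), Mrps18c (-0.029 under library totals) and Mrps36 (0.029 with the index). With a library left out, Mrps18a ran between -0.00078 and 0.24, Mrps18c between -0.065 and 0.15 and Mrps30 between -0.37 and 0.027. The cause of these shifts was not tested. In DESeq2, Mrpl34 passed at -0.74. Library-total scaling moved the median of all genes to -0.11, and the members' median relative to it was -0.16, against -0.15 under TMM. The checks without WT185 on overlap, and with unshared exon lengths, were chosen after seeing the data.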
